A study of Mus musculus with 7 samples.

Results

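The genes described here are 54 members of the vesicle traffic machinery between the endoplasmic reticulum (ER) and the Golgi. Their names were fixed from textbook function, with earlier results of these data known. These genes are 54 of the 48795 genes in the expression table. They fall into 15 genes of the COPII coat and its exit sites, 13 cargo receptors, 12 genes of the COPI coat and its GTPases, 9 SNAREs and 5 tethers and Golgi matrix proteins. Each was followed across all 7 bulk RNA sequencing libraries of a study of B cell fate after immunization. The libraries came from 3 sorts of memory B cells (MBCs) and 4 sorts of plasma cells (PCs), which the comparison sets against each other. All cells came from spleens of female wild type C57BL/6 mice aged 8 to 12 weeks, 10 days after intravenous sheep red blood cells, and all passed a CD43 bead column and red cell lysis before the sort. MBCs were gated as B220+, CD138-, IgD-, CD38+ and CD273+ cells, and PCs as B220lo, CD138+ and IgD- cells. Libraries were made from RNA converted with a Nugen cDNA system and were read on a HiSeq. The labels do not say whether the replicates came from separate mice, so p-values measure the spread between these libraries, which may be technical.

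COPII is the coat that buds vesicles from exit sites of the ER and carries newly folded proteins forward, and COPI is the coat that returns receptors and escaped ER residents from the Golgi. Cargo receptors link luminal proteins to these coats, tethers catch incoming vesicles, and SNAREs fuse them with the target membrane. PCs are professional secretors that send antibody through this route, whereas resting MBCs secrete little.

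Most of the machinery was higher in PCs. Of the 54 members, 29 were called higher in PCs, against 6.41% of all 11573 genes tested, and 0 were called lower, against 2.14% of all genes. Testing needed 1 TPM in at least 3 libraries, and 4 of the called members passed this minimum only with PC libraries. A call is an adjusted p under 0.05 in limma with a change of at least 1 on the log2 scale. No member with a negative fold change reached an unadjusted p under 0.05 either, so the count of members falling was 0 on that criterion too. The median log2 fold change of the members was 1.70, and that of all genes tested was 0.14. All 4 PC libraries lay above all 3 MBC libraries for 39 members (13.0% of all genes), none lay below for any member (8.68% of all genes), and the groups overlapped for 15. Values are in scaled TPM, a TPM (transcript abundance relative to all transcripts of a library) divided by a library factor that brings the median gene to a common level, because immunoglobulin transcripts took 49.4% to 55.9% of the PC libraries and 1.65% to 3.16% of the MBC libraries. Fold changes are PC minus MBC on log2(scaled TPM + 1), which understates the change of low genes.

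The direction of weakly changed members depended on that scaling. With TPM as deposited, 11 members were called higher (4.08% of all genes) and 3 lower (26.1% of all genes), the lower ones being Sec24b, Copg2 and Bnip1. The median log2 fold change of all genes then moved to -0.91 and that of the members to 0.40. Relative to the median of all genes, 50 of 54 members lay higher in PCs under both scalings, and the median member lay 1.56 above it with scaling and 1.31 above it without. In bulk RNA, fewer cells of a type and less RNA per cell cannot be told apart. As a share of deposited TPM, the members made up 0.194% to 0.256% of the MBC libraries and 0.249% to 0.314% of the PC libraries, ranges that overlapped.

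Markers set 1 MBC library apart from its label. All 6 plasma cell markers were called higher in PCs and 5 of 9 B cell markers lower. MBC replicate 3 correlated with the 4 PC libraries at 0.700 to 0.777 (Pearson, log2 values across genes) and with MBC replicates 1 and 2 at 0.687 and 0.681. MBC replicates 1 and 2 correlated with each other at 0.675 and with the PC libraries at 0.537 to 0.564. MBC replicate 3 had 18061 genes above 0, against 12983 and 11527 in MBC replicates 1 and 2. Mitochondrial genes took 19.7% of its TPM, against 33.2% and 33.5%. The gate markers of MBC replicate 3 were low, with Cd38 at 6.77 against 130.3 and 186 in the other MBC libraries. Pdcd1lg2, which encodes CD273, was at 2.59 in it against 43.3 and 24.4, inside the PC range of 0 to 2.84. This library had Ccr6 at 2.26 against 108 and 136, and a summed level of 6 proliferation genes of 825 against 162 and 190.4. It was also the only MBC library with the less frequent of 2 title prefixes, which it shared with PC replicate 4, so the prefix and this library cannot be told apart among MBCs. Without it, 30 members were called higher (15.1% of all genes) and 0 lower (8.20% of all genes). MBC replicate 2 held red cell RNA, with 2897 scaled TPM over 5 erythroid markers against 2.60 and 15.6 in the other MBC libraries and 0.320 to 72.6 in PCs. Without it, 31 members were called higher (5.58% of all genes) and 0 lower (1.37% of all genes). Of 8 T cell markers 4 were tested and 3 (Cd28, Cd3e and Trac) were called higher in PCs. Lck, also tested, was not called, at 14.3, 0 and 23.0 in MBCs and 0.629 to 5.03 in PCs. The summed level of the list was 0 to 24.1 in MBCs and 70.9 to 95.5 in PCs. Cd28 alone gave 41.9 to 55.7 of it in PCs, and Lck gave most of it in MBCs. Cd3d, Cd3g, Cd4 and Cd8a were at 6.42 or less in all libraries, and Cd3g and Cd8a were listed at 0 in all MBC libraries. The 8 myeloid markers summed to 2.15 to 29.0 and the 4 platelet markers to 0 to 4.58 over the 7 libraries. None of the 3 myeloid markers tested was called, no platelet marker reached the minimum for testing, and S100a9 was listed at 0 throughout. The part of these cells in the results was not tested.

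**Figure D1:**
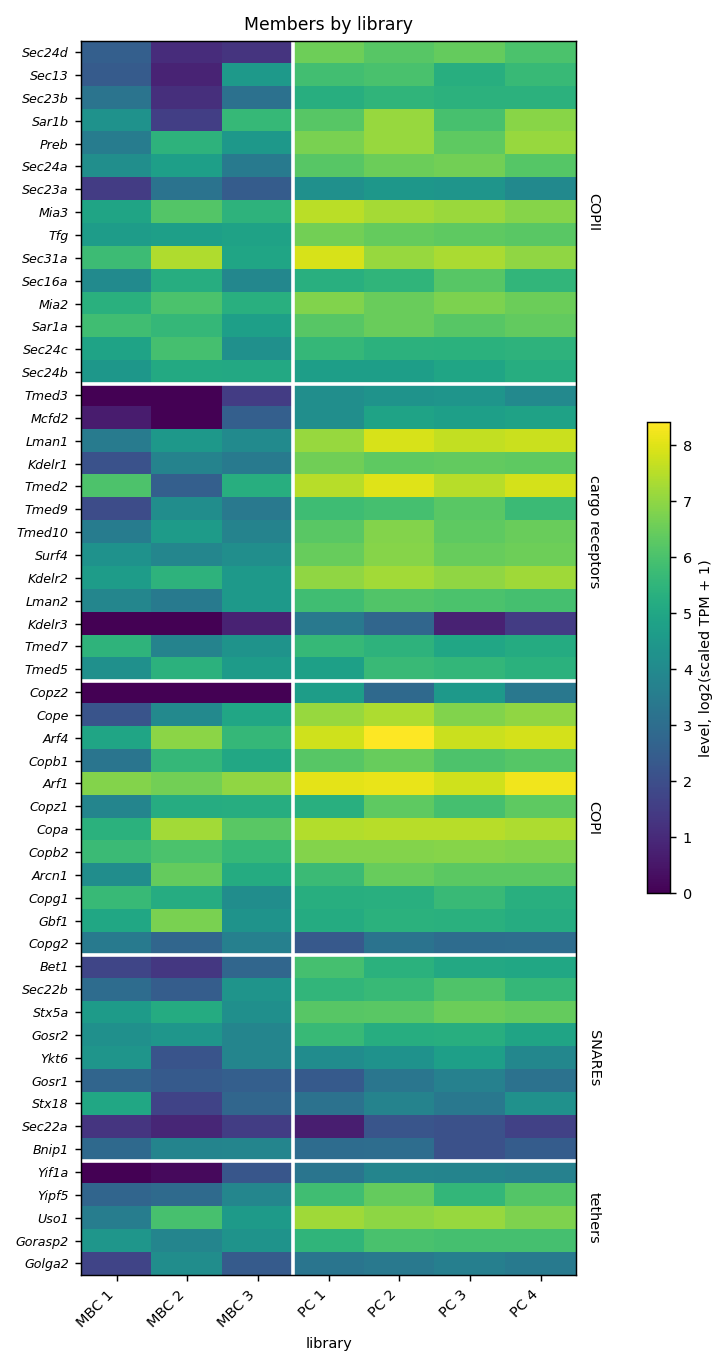
Level of each of the 54 members in each library, as log2(scaled TPM + 1) in color, with rows grouped by role and ordered by fold change and a white line between the MBC and PC columns. Cargo receptors change most visibly from dark to light, Copz2 is dark in all MBC libraries, and rows at the foot of each block such as Sec24b, Gbf1 and Bnip1 do not separate the groups.

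The count of calls dropped when a PC library was left out, to 18 without PC replicate 2 (4.03% of all genes) and to 19 without PC replicate 4 (4.23% of all genes), with 0 lower in both (0.823% and 1.01% of all genes). The count called higher was 16 with a replicate block by number (3.37% of all genes) and 18 with a block by title code (3.75% of all genes). A core of 11 of the 29 called members kept the call under all 20 alternative settings, namely Sec24d, Lman1, Mcfd2, Surf4, Tmed3, Tmed10, Kdelr1, Cope, Copz2, Bet1 and Yipf5. The other 18 lost it under at least one of them, among them Yif1a under 11, Tmed2 under 10, Arf4 and Uso1 under 9, Mia3 and Gorasp2 under 8, and Preb and Stx5a under 7. Of the core, Copz2, Tmed3 and Mcfd2 passed the minimum level only with the help of PC libraries.

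Promoters were read for the members because plasma cells use the unfolded protein response, whose factors XBP1 and ATF6 are known to bind a core of TGACGTG. RefSeq promoters of build GRCm38.p6, taken from 250 bases before to 50 after the annotated start, were matched by symbol for 48 of 54 members. TGACGTG, searched on both strands, was found in 9 of these 48 (18.8%), against 2.22% of 27025 genes with a promoter and 3.70% of 7889 tested genes with one. The 9 were Sec23a, Sec24d, Mia3, Kdelr3, Copb1, Copb2, Arf1, Gbf1 and Stx5a. It was found in 5 of 25 called members and in 4 of 23 members that were not called. The shorter ACGTG, which lies inside TGACGTG, was in 31 members (64.6%), against 30.5% of tested genes. The ER stress element, spelled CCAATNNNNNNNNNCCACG, was in 0 of 48 members and 0.152% of tested genes. These matches are descriptions of the letters in the window and not of binding.

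The stretches around TGACGTG before the RefSeq start are shown, as members with very different changes carry the same letters. Each runs 5′ to 3′ on the gene's strand, with the match in capitals, as TGACGTG or as its reverse complement CACGTCA. Those that touch an exon annotated by GENCODE are cut to 30 bases, and the others run to 60.
Sec24d, chr3:123267459-123267488, plus strand: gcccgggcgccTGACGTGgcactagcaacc
Mia3, chr1:183369618-183369677, minus strand: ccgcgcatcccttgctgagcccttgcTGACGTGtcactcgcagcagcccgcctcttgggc
Kdelr3, chr15:79516348-79516407, plus strand: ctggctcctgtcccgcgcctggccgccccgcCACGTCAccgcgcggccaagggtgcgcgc
Copb1, chr7:114254689-114254718, minus strand: ccgcccccttcCACGTCAgccaaggacttg
Arf1, chr11:59228228-59228257, minus strand: gcggcaggcgcTGACGTGgctgccgtcagc
Gbf1, chr19:46152528-46152557, plus strand: ctagactgaggctagttacCACGTCAgtga
The match began 26 bases before the RefSeq start in Sec24d, and 11 bases before it in Gbf1, whose groups overlapped. The stretches of Sec24d, Copb1, Arf1 and Gbf1 touch GENCODE exons, so they do not lie wholly upstream of GENCODE genes.

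In the COPII coat and its exit sites, 8 of 15 genes rose in PCs, 0 fell and 7 were not called. Of all genes tested, 6.41% were called higher and 2.14% lower. The median log2 fold change of the group was 1.71. The count dropped to 4 without PC replicate 2, to 5 without MBC replicate 1 or PC replicate 1, 3 or 4, and to 1 with TPM as deposited. The share of all genes called higher was 4.03%, 4.23% to 5.44% and 4.08% under these settings in turn. Their summed level was 421 ± 143 over the 3 MBC libraries and 1188 ± 78.4 over the 4 PC libraries (scaled TPM, mean ± SD), without overlap. The change was uneven between parts of the coat. Genes of the inner coat included both Sec24d, at 4.68, and the flattest COPII genes, Sec24b and Sec24c.

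Sec24 is the subunit that reads export signals on cargo, and its 4 paralogues moved apart. Sec24d (chr3:123267455-123365641, GRCm38) was at 4.85, 1.10 and 1.42 scaled TPM in the MBC libraries and at 93.3, 74.2, 85.2 and 64.8 in the PC libraries. The lowest PC library was thus far above the highest MBC library, and the log2 fold change was 4.68 ± 0.45 (SE, adjusted p = 0.00020, limma). Sec24a was at 16.8, 25.8 and 10.1 in MBCs and 74.0, 90.4, 98.2 and 71.9 in PCs, again without overlap (log2 fold change 2.27 ± 0.38, adjusted p = 0.00549, limma). Sec24c, at 28.1, 59.2 and 17.8 in MBCs and 47.4, 41.4, 40.6 and 42.3 in PCs, and Sec24b, at 21.1, 33.5 and 32.8 in MBCs and 25.4, 25.2, 29.8 and 37.2 in PCs, overlapped. Their log2 fold changes were 0.45 ± 0.43 and 0.024 ± 0.36 (adjusted p = 0.562 and 0.975, limma), and both turned negative with TPM as deposited.

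The make-up of the Sec24 pool therefore differed between the cells. Sec24d was 3.35% ± 3.10 of the family's TPM in the 3 MBC libraries and 33.6% ± 3.79 in the 4 PC libraries (mean ± SD, as for other values of this form). Sec24a went from 20.5% ± 3.87 to 35.5% ± 4.08, Sec24c from 39.3% ± 10.4 to 18.3% ± 1.74, and Sec24b from 36.9% ± 13.9 to 12.6% ± 3.10. The pool itself was 84.2 ± 31.1 scaled TPM in MBCs and 235.3 ± 15.8 in PCs. Within each library the log2 ratio of Sec24d to Sec24c averaged -3.37 ± 1.31 in MBCs and 0.86 ± 0.19 in PCs, a difference of 4.23. The ratio of Sec24d to Sec24a differed by 2.42, that of Sec24c to Sec24a by -1.82 and that of Sec24b to Sec24a by -2.24. All 4 ratios separated the groups, with the smallest p that 3 against 4 libraries allow (exact two-sided permutation test, p = 0.0286, adjusted p = 0.054 over 17 pairs).

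Sec23 activates the GTPase of Sar1 on the vesicle. Sec23b was at 8.45, 1.17 and 7.69 in MBCs and 37.2, 44.2, 41.5 and 41.5 in PCs, and it rose by 2.90 ± 0.54 on the log2 scale (adjusted p = 0.00975, limma). Sec23a was lower in both groups, at 1.84, 8.19 and 4.43 in MBCs and 17.6, 21.0, 19.9 and 14.9 in PCs, and rose by 1.88 ± 0.50 (adjusted p = 0.0484, limma), a call lost in 14 of 20 alternatives. Their ratio did not separate the groups, and MBC replicate 2 alone held more Sec23a than Sec23b (exact permutation p = 0.343, adjusted p = 0.389). In PCs Sec23b made up 69.2% ± 2.88 of the pair.

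Sar1 is the GTPase that starts the coat. Sar1b was at 18.6, 1.97 and 48.9 in MBCs and 74.5, 137, 61.3 and 119.8 in PCs. These did not overlap, but the spread between MBC libraries was wide and the gene was not called (log2 fold change 2.72 ± 0.82, adjusted p = 0.0749, limma). Sar1a was at 56.2, 47.2 and 26.1 in MBCs and 74.2, 88.7, 74.3 and 82.7 in PCs, with a fold change of 0.94 ± 0.35 that was not called either (adjusted p = 0.139). The share of Sar1b in the pair ran from 4.0% to 65.2% in MBCs and from 45.2% to 60.8% in PCs, so the ranges overlapped. Preb, the exchange factor that loads Sar1 with GTP, rose from 24.7 ± 16.2 to 114 ± 28.3 scaled TPM (2.33 ± 0.47, adjusted p = 0.0143, limma).

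In the outer cage, Sec13 was at 4.34, 0.768 and 22.3 in MBCs and 57.4, 63.2, 37.7 and 50.1 in PCs. It rose by 3.11 ± 0.75 (adjusted p = 0.0317, limma), although the call was lost in 12 of 20 alternatives. Its partner Sec31a was at 53.4, 167 and 29.9 in MBCs and 237, 138, 159.6 and 128 in PCs and was not called (1.3 ± 0.54, adjusted p = 0.175), since MBC replicate 2 lay within the PC range. Without that library Sec31a was called. Sec13 also serves the nuclear pore and other complexes, so its transcript is not a measure of the cage alone.

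Among the exit site proteins, Mia3 and Tfg rose and Mia2 and Sec16a did not pass. Mia3, also called TANGO1, which helps load bulky cargo, was at 29.2, 70.2 and 42.4 in MBCs and 186, 152, 141 and 117 in PCs, and it rose by 1.71 ± 0.37 (adjusted p = 0.0194, limma). Its relative Mia2 was at 39.5, 63.9 and 38.4 in MBCs and 112, 88.6, 106 and 89.9 in PCs and narrowly missed the call (1.09 ± 0.32, adjusted p = 0.0709). The ratio of Mia3 to Mia2 was higher in all 4 PC libraries than in any MBC library, by 0.62 on average (exact permutation p = 0.0286, adjusted p = 0.054). Tfg, which organizes exit sites, was the tightest gene of the group in MBCs and rose from 25.9 ± 1.54 to 84.4 ± 10.0 (adjusted p = 0.0079). Sec16a, the exit site scaffold, had means of 21.9 ± 12.8 and 50.5 ± 16.1 and was not called (adjusted p = 0.115).

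**Figure D2:**
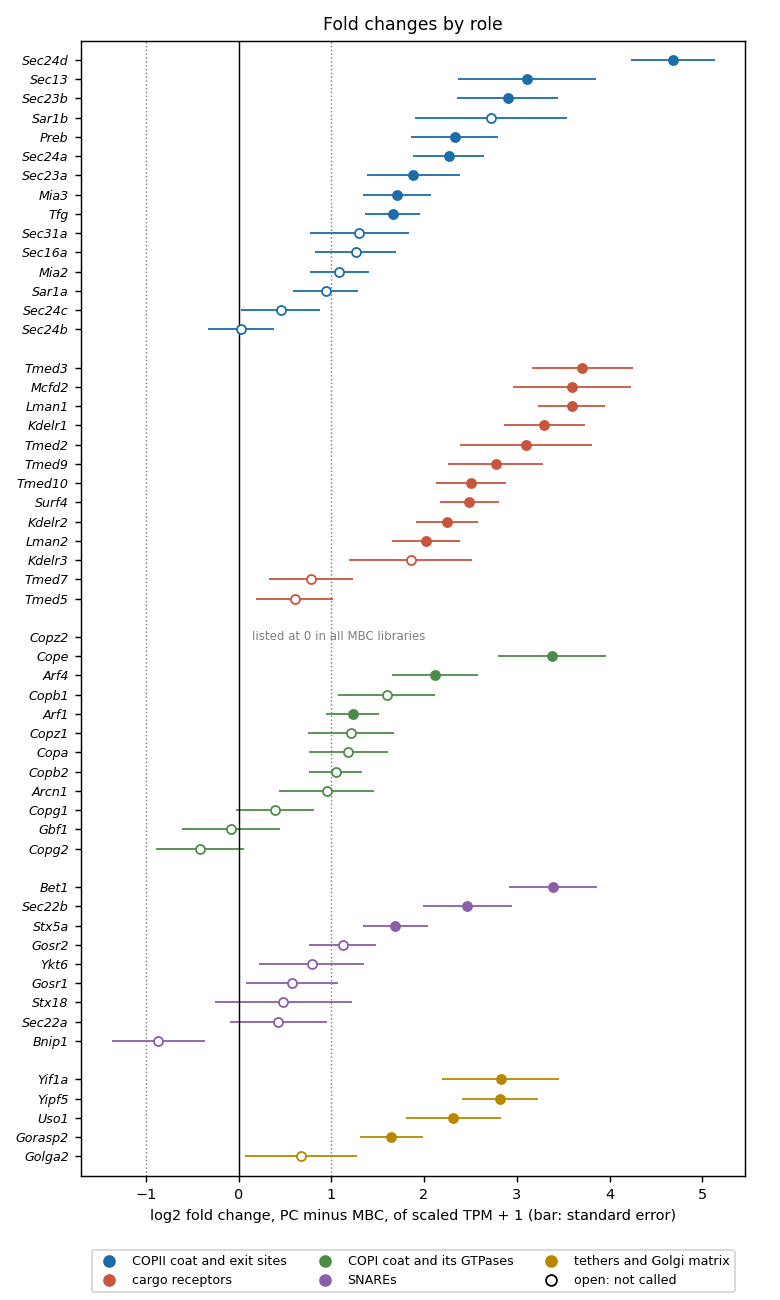
Log2 fold change of each member, PC minus MBC, on log2(scaled TPM + 1), with standard errors as bars, filled points for members called higher, open points for those not called, and dotted lines at a change of 1 in either direction. Sec24d stands farthest right at 4.68, 10 cargo receptors lie between 2.02 and 3.71, the 3 points left of 0 (Gbf1, Copg2 and Bnip1) are open, and Copz2 has no point because it was listed at 0 in all MBC libraries.

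Of the 13 cargo receptors, 10 rose in PCs (6.41% of all genes), 0 fell (2.14% of all genes) and 3 were not called. Their median log2 fold change was 2.51. Their summed level was the steadiest of the groups in MBCs, at 211, 198 and 196 scaled TPM, and reached 928, 1228, 1019 and 1085 in PCs. The ratio of the group means was 5.28, against 2.82 for COPII and 2.34 for COPI. With TPM as deposited the median was still positive, at 1.31, and 6 were called higher (4.08% of all genes).

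Lman1, also called ERGIC-53, is a mannose-binding receptor that works with Mcfd2 to export certain glycoproteins. Lman1 was at 10.3, 21.5 and 15.2 in MBCs and at 136, 238, 199 and 213 in PCs, a rise of 3.59 ± 0.36 (adjusted p = 0.000265, limma). Mcfd2 was at 0.543, 0 and 4.85 in MBCs and 16.8, 28.4, 25.9 and 27.5 in PCs, and rose by 3.60 ± 0.64 (adjusted p = 0.0074, limma). Each kept its call under all 20 alternatives. Mcfd2, however, reached 1 TPM in 1 MBC library and passed the minimum for testing only with PC libraries, so its call depends in part on that filter. Lman2, a related lectin of the early secretory pathway, was at 13.5, 10.1 and 22.7 in MBCs and 56.4, 68.5, 64.6 and 59.6 in PCs. It rose by 2.02 ± 0.37 (adjusted p = 0.00828, limma), less than Lman1, and the log2 ratio of Lman2 to Lman1 was lower in all PC libraries, with a mean difference of -1.58 (exact permutation p = 0.0286, adjusted p = 0.054).

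Surf4, a multispanning receptor for soluble cargo, rose from 16.1 ± 2.49 to 95.3 ± 14.1 scaled TPM, and its log2 fold change of 2.49 ± 0.32 had an adjusted p of 0.00106 (limma).

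The p24 proteins of the Tmed family shuttle between ER and Golgi with both coats. Tmed2, Tmed3, Tmed9 and Tmed10 rose, and Tmed5 and Tmed7 did not pass the test. Tmed2 rose from 36.0 ± 30.6 to 213 ± 39.5, a call lost without any 1 of the 4 PC libraries, Tmed9 from 9.58 ± 6.66 to 60.6 ± 10.1 and Tmed10 from 15.5 ± 6.88 to 89.3 ± 17.8. Tmed3 was listed at 0, 0 and 1.79 in MBCs and at 16.8, 19.0, 19.8 and 14.4 in PCs (adjusted p = 0.00247, limma). Tmed3 passed the minimum for testing only with PC libraries, so its call depends in part on that filter. Tmed7 was at 43.7, 12.5 and 19.1 in MBCs and 48.3, 42.6, 30.5 and 35.1 in PCs, and Tmed5 was at 17.8, 41.4 and 23.5 in MBCs and 26.4, 51.4, 46.0 and 40.5 in PCs. Both overlapped between groups, with log2 fold changes of 0.78 ± 0.45 and 0.60 ± 0.41 (adjusted p = 0.327 and 0.407). Tmed3 and Tmed7 are close relatives of one p24 class, and their log2 ratio was higher in all PC libraries than in any MBC library. With Tmed3 listed at 0 in 2 MBC libraries its size rested on the pseudocount, with a difference of 2.92 at a pseudocount of 1 and 5.22 at 0.1.

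KDEL receptors bind the tail signal of escaped ER chaperones and bring them back in COPI vesicles. Kdelr1 was at 3.36, 12.4 and 9.91 in MBCs and 95.8, 78.1, 83.5 and 78.3 in PCs, and rose by 3.30 ± 0.44 (adjusted p = 0.00138, limma). Kdelr2, the more abundant receptor in all 7 libraries, was at 24.1, 42.4 and 22.0 in MBCs and 127, 149, 128 and 147 in PCs, and rose by 2.24 ± 0.33 (adjusted p = 0.00274, limma). Kdelr3 was listed at 0, 0 and 0.736 in MBCs and at 9.45, 5.87, 0.763 and 1.83 in PCs and was not called (1.86 ± 0.67, adjusted p = 0.126). The 2 higher receptors rose unequally, so Kdelr1 was 21.8% ± 9.11 of the family's TPM in MBCs and 37.1% ± 3.74 in PCs. The log2 ratio of Kdelr2 to Kdelr1 was lower in all PC libraries, with a mean difference of -1.05 (exact permutation p = 0.0286, adjusted p = 0.054).

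In the COPI coat and its GTPases, 4 of 12 genes rose (6.41% of all genes), 0 fell (2.14% of all genes) and 8 were not called. The count includes Copz2. It dropped to 2 without MBC replicate 1, PC replicate 2 or PC replicate 4 (5.44%, 4.03% and 4.23% of all genes). The median log2 fold change was 1.20 with scaling and -0.11 with TPM as deposited, so the direction of this group rested on the scaling, although it lay above the median of all genes in both by 1.06 and 0.80. The summed level was 537 ± 203 scaled TPM in MBCs and 1254 ± 119.8 in PCs, without overlap. The log2 ratio of these means was 1.22 and became -0.066 with TPM as deposited.

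Within coatomer, the complex of the COPI coat, Cope and Copz2 were the only subunits called. Cope, the epsilon subunit (chr8:70302518-70312993), was at 3.50, 14.4 and 30.3 in MBCs and 137, 163, 111 and 129 in PCs, and rose by 3.38 ± 0.58 (adjusted p = 0.00605, limma). Copz2, one of the zeta subunits (chr11:96849870-96861203), was listed at 0 in all 3 MBC libraries and at 24.6, 6.26, 22.2 and 9.27 in PCs, with no fold given because one group was at 0. It passed the minimum level only through the PC libraries, so its call follows from that filter and the zeros and is no separate evidence. The other zeta gene, Copz1, was at 13.1, 36.2 and 36.7 in MBCs and 38.2, 79.0, 60.2 and 79.2 in PCs and was not called (1.21 ± 0.46, adjusted p = 0.144). Copz2 thus supplied 7.34% to 39.1% of the zeta TPM in PCs and 0% in MBCs.

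The large coatomer subunits did not pass. Copb2 was close, with 55.0 ± 7.88 scaled TPM in MBCs and 114 ± 1.26 in PCs and an adjusted p of 0.0515 (limma), and it passed with a pseudocount of 0.1, with no minimum and with a minimum of 5 TPM. Copa had means of 88.4 ± 56.6 and 176 ± 7.74, Copb1 of 29.3 ± 19.6 and 74.4 ± 8.78, and Arcn1, the delta subunit, of 45.3 ± 35.2 and 73.4 ± 15.1, with adjusted p-values of 0.127, 0.0988 and 0.292. The MBC spread was wide in these genes, and MBC replicate 2 was the highest MBC library for all of them. Without it Copa and Copb1 were called. The gamma subunits were flat. Copg1 was at 50.2, 36.2 and 16.5 in MBCs and 38.0, 38.7, 50.7 and 38.2 in PCs (0.39 ± 0.42, adjusted p = 0.619), and Copg2 was at 10.0, 5.86 and 11.5 in MBCs and 4.07, 8.25, 6.86 and 7.0 in PCs (-0.42 ± 0.48, adjusted p = 0.645). Their ratio did not pass either (exact permutation p = 0.2, adjusted p = 0.262).

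Arf1, the GTPase that recruits coatomer, was the most abundant member in MBCs on average, at 114, 96.5 and 127 scaled TPM, and reached 267, 279, 219 and 296 in PCs. It rose by 1.23 ± 0.28 (adjusted p = 0.027, limma), a call that 13 of 20 alternatives lost, and its fold change was -0.086 with TPM as deposited. Arf4, a related GTPase of the early secretory pathway, was at 29.9, 122 and 47.1 in MBCs and 220.1, 338, 212 and 233 in PCs, and rose by 2.12 ± 0.46 (adjusted p = 0.0206, limma). The ratio of Arf4 to Arf1 overlapped between groups (exact permutation p = 0.229, adjusted p = 0.278). Gbf1, the exchange factor that loads Arf1 at the cis-Golgi, was at 31.2, 105 and 19.0 in MBCs and 35.1, 40.0, 39.7 and 35.5 in PCs, with no change that passed (-0.086 ± 0.53, adjusted p = 0.94). Its fold change was 0.57 without MBC replicate 2.

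Forward and return coats were also set against each other within each library. The summed COPII coat genes, over Sec13, Sec31a and the Sec23 and Sec24 families, stood to coatomer at 0.715, 0.676 and 0.443 in MBCs and 0.901, 0.651, 0.743 and 0.652 in PCs. The ranges overlapped, with means of 0.611 ± 0.147 and 0.737 ± 0.118, so a shift between the coats was not detected in these sums, which have no test.

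**Figure D3:**
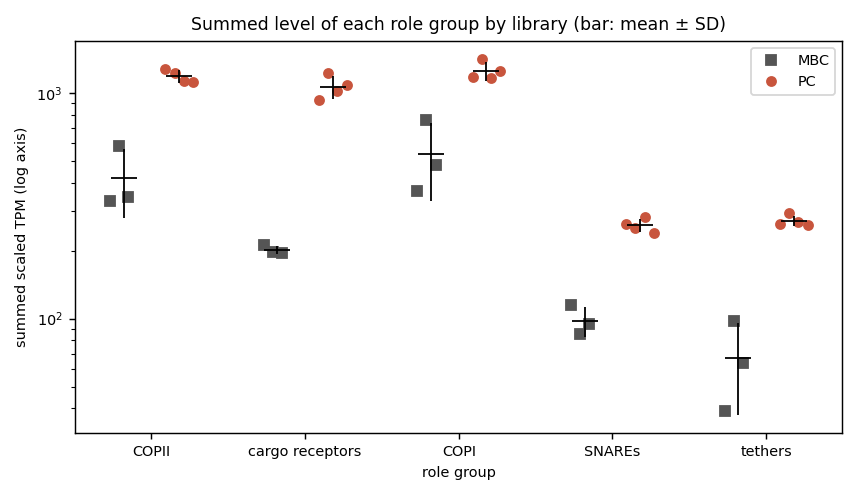
Summed scaled TPM of the members of each role group in each library on a log axis, with squares for the 3 MBC libraries, circles for the 4 PC libraries, and bars for mean ± SD. All 4 PC circles lie above all MBC squares in each of the 5 groups, with the widest gap for the cargo receptors (202 ± 8.27 against 1065 ± 126).

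Of the 9 SNAREs, 3 rose (6.41% of all genes), 0 fell (2.14% of all genes) and 6 were not called. Their median log2 fold change of 0.79 became -0.41 with TPM as deposited. Bet1 (chr6:4076899-4086972), Sec22b and Stx5a, which act together in fusion at the Golgi entry face, were the 3 that rose. Bet1 was at 2.36, 1.60 and 5.80 in MBCs and 60.2, 40.8, 33.0 and 31.3 in PCs, a rise of 3.39 ± 0.48 (adjusted p = 0.0020, limma). Sec22b was at 6.78, 4.53 and 19.2 in MBCs and 45.3, 49.4, 67.2 and 47.5 in PCs (2.47 ± 0.48, adjusted p = 0.0123, limma). Stx5a, the syntaxin of this complex, was at 23.6, 35.3 and 17.1 in MBCs and 73.3, 75.0, 90.6 and 85.2 in PCs (1.69 ± 0.35, adjusted p = 0.0154, limma).

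The remaining SNAREs did not pass. Gosr2, a Golgi SNARE of the same complex, had means of 17.0 ± 3.45 and 38.3 ± 8.40 (adjusted p = 0.0913), Gosr1 of 4.92 ± 0.756 and 8.25 ± 3.16 (adjusted p = 0.519) and Ykt6, a lipid-anchored SNARE, of 12.2 ± 8.24 and 18.5 ± 5.07 (adjusted p = 0.43). Stx18 and Bnip1 belong to the complex that receives COPI vesicles at the ER. Stx18 had means of 13.0 ± 15.6 and 11.9 ± 4.43 (adjusted p = 0.736), and Bnip1 was at 6.31, 12.9 and 13.2 in MBCs and 6.81, 7.09, 3.27 and 4.45 in PCs (-0.87 ± 0.50, adjusted p = 0.328). Sec22a, a relative of Sec22b, was low throughout, at 1.45, 0.863 and 1.86 in MBCs and 0.645, 3.60, 3.27 and 2.12 in PCs. The log2 ratio of Sec22b to Sec22a was 2.02 ± 0.70 in MBCs and 4.06 ± 0.56 in PCs, without overlap (exact permutation p = 0.0286, adjusted p = 0.054).

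Of the 5 tethers and Golgi matrix genes, 4 rose (6.41% of all genes), 0 fell (2.14% of all genes) and 1 was not called. Their median log2 fold change was 2.31. The count dropped to 1 without PC replicate 2, 3 or 4 and with TPM as deposited (4.03%, 4.54%, 4.23% and 4.08% of all genes). It was 2 without MBC replicate 1 or with immunoglobulin genes removed (5.44% and 3.46% of all genes). Yipf5, a membrane protein that cycles between ER and Golgi, was at 5.72, 6.55 and 13.5 in MBCs and 55.8, 83.9, 46.9 and 70.2 in PCs (2.82 ± 0.41, adjusted p = 0.00247, limma). Its partner Yif1a was listed at 0, 0.148 and 3.73 in MBCs and at 8.64, 13.0, 12.8 and 11.9 in PCs (2.82 ± 0.63, adjusted p = 0.0235, limma). Yif1a passed the minimum for testing only with PC libraries, so its call depends in part on that filter. The Yif1a call was lost in 11 of 20 alternatives. Uso1, also called p115, which tethers vesicles to the Golgi, was at 10.8, 60.6 and 23.2 in MBCs and 146, 124, 136 and 109.8 in PCs (2.31 ± 0.51, adjusted p = 0.0214, limma). The Uso1 call was lost in 9 of 20 alternatives. Gorasp2, a stacking protein of the Golgi, was at 20.2, 13.3 and 19.1 in MBCs and 44.0, 62.3, 60.5 and 59.6 in PCs (1.65 ± 0.34, adjusted p = 0.016, limma). Golga2, also called GM130, the matrix protein that Uso1 binds, was at 2.33, 16.5 and 4.27 in MBCs and 8.60, 9.47, 11.3 and 9.86 in PCs and was not called (0.67 ± 0.60, adjusted p = 0.538). All 4 PC values of Golga2 lay inside the MBC range, whereas those of the other 4 genes lay above it.

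Over all families, 17 pairs of paralogues or relatives were compared by their log2 ratio within each library. Of these, 9 reached the smallest p that the design allows (exact two-sided permutation test, p = 0.0286), 10 did not overlap between groups, and 0 passed after adjustment, where the lowest value was 0.054. No share over other gene pairs was taken. Of all single genes tested, 13.0% lay higher in PCs without overlap and 8.68% lower. Pairs that share a gene, as within Sec24, are not independent. With TPM as deposited or a pseudocount of 0.1, 10 pairs passed at an adjusted p of 0.0486. They include Copz2 to Copz1 and Tmed3 to Tmed7, whose MBC ratios are set by the pseudocount wherever the first gene is listed at 0. The 7 pairs that overlapped were Sec23b to Sec23a, Sar1b to Sar1a, Tmed5 to Tmed7, Kdelr3 to Kdelr1, Kdelr3 to Kdelr2, Copg2 to Copg1 and Arf4 to Arf1. Apart from Copz2 to Copz1, the ratios that separated moved in PCs toward Sec24d, Sec24a, Kdelr1, Mia3, Sec22b, Lman1 and Tmed3. None of them passed after adjustment with the main scaling and pseudocount.

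**Figure D4:**
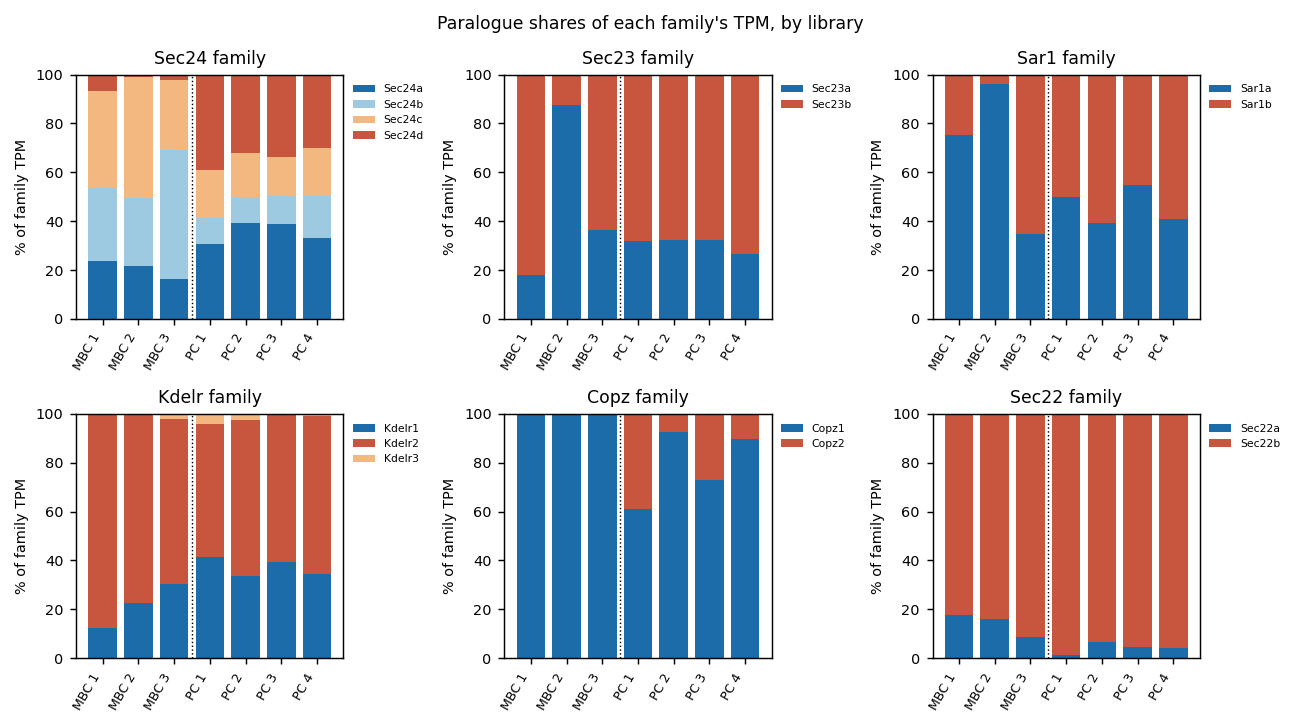
Share of each paralogue in the summed TPM of its family, in percent, as stacked bars for each library, with a dotted line between the 3 MBC and 4 PC libraries. Sec24d is a thin cap in MBCs (3.35% on average) and 33.6% in PCs, Copz2 appears in PC libraries alone, and the Sec23 and Sar1 bars vary more among the MBC libraries than between the groups.

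The members were steadier among PC libraries than among MBC libraries. The median coefficient of variation over the members was 18.8% in PCs and 61.6% in MBCs. Over 5638 tested genes of like mean level it was 28.6% and 62.3%, and over all tested genes 38.2% and 76.7%. Of the 54 members, 49 reached 1 TPM in all 3 MBC libraries and 1, Copz2, in none. The 5 that did not reach it in all MBC libraries (Tmed3, Mcfd2, Kdelr3, Yif1a and Copz2) were each listed at 0 in at least one library and passed the minimum for testing only with PC libraries. Of the 49 others, 25 were called higher.

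Transcript length moved with the fold changes of all genes. Genes whose longest annotated transcript was 1000 to 2000 bases had a median log2 fold change of 0.41, those of 2000 to 4000 bases 0.16, those of 4000 to 8000 bases -0.067 and longer ones -0.40. The medians of the members were 2.77 over 10 members, 1.71 over 27 and 1.02 over 16, and the 1 member over 8000 bases was at 1.26. After a length trend was removed within each library, 27 members were called higher (5.37% of all genes) and 0 lower (2.64% of all genes), with Sec23a, Arf1 and Arf4 lost and Sec16a gained. Exons of 19 members, 8 of them called, overlap another gene, and whether the counting used strand is not given in the sources used here. Among the called ones these are Arf4, Preb, Sec23a, Tmed10, Surf4, Stx5a, Yif1a and Gorasp2.

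The neighboring steps of the route were read from fixed lists. Of 74 other ER to Golgi genes, 69 were tested, 12 rose (17.4%, against 6.41% of all genes) and 0 were called lower, with 1 gene at a negative fold change and an unadjusted p under 0.05, and the median was 0.88. The highest were Creb3l2, an ER-anchored transcription factor of secretory cells (6.08 ± 0.44), Arfgap3, which acts on Arf1 (3.51 ± 0.49), and Ergic1 of the intermediate compartment (2.89 ± 0.31). Creb3l2 and Arfgap3 each reached 1 TPM in 1 MBC library and passed the minimum for testing only with PC libraries. The called genes Creb3l1, Tmed4 and Yipf2 reached 1 TPM in 0, 2 and 2 MBC libraries and also passed only with PC libraries. All these calls depend in part on that filter. The lowest of the called were Rab1a, the GTPase that recruits Uso1 (1.65 ± 0.31), Ergic2 (1.36 ± 0.34) and Rab2a (1.33 ± 0.32), with adjusted p-values between 5.44e-05 for Creb3l2 and 0.0388 for Ergic2 (limma).

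The steps after the Golgi were read the same way. Of 48 genes for clathrin adaptors, late SNAREs, the exocyst and Rab proteins, 46 were matched and tested, 1 rose (2.17%, against 6.41% of all genes) and 2 fell (4.35%, against 2.14%), with a median of 0.12 that is close to that of all genes. Ap3s1, a subunit of the AP-3 adaptor, rose by 2.64 ± 0.62 (adjusted p = 0.029, limma). It reached 1 TPM in 1 MBC library and passed the minimum for testing only with PC libraries. Gga2, an adaptor at the trans-Golgi, fell by 2.14 on the log2 scale (SE 0.55, adjusted p = 0.0418, limma), and Rab11a, a GTPase of recycling endosomes, fell by 2.35 (SE 0.56, adjusted p = 0.03, limma). The difference between these lists and the 54 members was not tested, since the members were chosen with results of these libraries known.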

How the data were processed

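RNA of 3 MBC and 4 PC libraries was read from 1 table of TPM for 48795 genes, as deposited by the authors, which sums to the same total in each library, is rounded to 2 decimals and keeps no read totals, so the depth behind a value is unknown and no counting interval is given. The submitters' processing notes name RSEM 1.3.0, STAR 2.5.2a, DESeq2 1.18.1 and GRCm38, with no role or order. The annotation release and strand setting are not given in the sources used here. Gene symbols and coordinates came from GENCODE vM21, which matched 48349 identifiers.

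TPM was divided by each library's median ratio to the geometric mean over 9305 genes above 0 in all libraries. Genes at 1 TPM or more in at least 3 libraries (11573) were tested with limma 3.58.1 (R 4.3.3, mean-variance trend) on log2(scaled TPM + 1), with Benjamini-Hochberg adjustment over all of them. Calls needed an adjusted p under 0.05 and a log2 fold change of at least 1 in size. Paralogue ratios were tested within libraries over the 35 assignments of 3 and 4 libraries (exact, two-sided), adjusted over 17 pairs. Sums, shares and promoter letters are descriptions. The statistics were tested on simulated data. Plots were drawn with matplotlib 3.10.9.

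Values per library are given for every member of a pair and, in each role group, for the 3 highest and 2 lowest fold changes; further members are given by means, and the other pathway lists by counts and the 3 highest and 3 lowest called. The members and lists were chosen with earlier results of these data known. Alternatives covered scaling, pseudocount, minimum level, trend, replicate block, title prefix, a length trend chosen after seeing the data, and leaving out each library.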

Additional observations from a re-analysis of the deposited data

Results flagged for a closer look

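Of 77 values examined over the 4 PC libraries, 4 had 1 library farther from the others than Dixon's critical value allows, where chance gives about 1 in 20, or 3.85. Copg1 was at 50.7 scaled TPM in PC replicate 3 and at 38.0 to 38.7 in the other PC libraries. Arf4 was at 338 in PC replicate 2 and at 212 to 233 in the others. Gorasp2 was at 44.0 in PC replicate 1, below the 59.6 to 62.3 of the others. The log2 ratio of Sec23b to Sec23a was 1.42 in PC replicate 4 and 1.03 to 1.04 in the others. These gaps fell in 4 different libraries, and their cause was not tested.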

How the results depend on the processing

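Of 29 members called higher, 11 kept the call under all 20 alternatives. Counts of members called higher were 29 with a pseudocount of 5, 28 with a pseudocount of 0.1, quantile normalization or no trend, 30 with a minimum of 5 TPM, 27 without the length trend (an alternative chosen after seeing the data), 25 in libraries of the more frequent title prefix, 23 with immunoglobulin genes removed or no minimum, and 21 with mitochondrial genes removed as well. Over all genes, 742 were called higher and 248 lower. These counts ran from 352, with immunoglobulin and mitochondrial genes removed, to 1624, without MBC replicate 3, and from 60, with the block by number, to 3018, with TPM as deposited. TPM keeps no read totals, which limits what can be said of low members. The share of all genes called higher was 5.53%, 5.61%, 5.44%, 6.22%, 8.44%, 5.37%, 9.89%, 3.46%, 2.05% and 3.11% under these settings in turn. Ratios with Copz2 or Tmed3 below rest on the pseudocount, since these are listed at 0 in MBC libraries. The causes of the changes below were not tested.

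With TPM as deposited, 11 members were called higher (4.08% of all genes) and 3 lower (26.1% of all genes). Higher were 1 COPII gene, 6 cargo receptors, 2 COPI genes, 1 SNARE and 1 tether. Log2 fold changes that turned negative were -0.016 for Sec16a, -1.26 for Sec24b, -0.84 for Sec24c, -0.0052 for Sec31a, -0.36 for Sar1a, -0.22 for Mia2, -0.68 for Tmed5, -0.50 for Tmed7, -0.13 for Copa, -0.26 for Copb2, -0.90 for Copg1, -0.076 for Copz1, -0.34 for Arcn1, -0.086 for Arf1, -0.56 for Gosr1, -0.15 for Gosr2, -0.41 for Sec22a, -0.69 for Stx18, -0.44 for Ykt6 and -0.47 for Golga2. Log2 ratios of the summed levels were 0.21 for COPII, 1.07 for cargo receptors, -0.066 for COPI, 0.067 for SNAREs, 0.74 for tethers and 0.31 for all members, against 1.5, 2.40, 1.22, 1.40, 2.03 and 1.61 with scaling. Paralogue ratios that now passed (adjusted p = 0.0486, exact permutation) differed by -2.25 for Sec24b to Sec24a, 4.44 for Sec24d to Sec24c, 2.61 for Sec24d to Sec24a, -1.83 for Sec24c to Sec24a, 0.62 for Mia3 to Mia2, -1.57 for Lman2 to Lman1, 3.49 for Tmed3 to Tmed7, -1.12 for Kdelr2 to Kdelr1, 3.48 for Copz2 to Copz1 and 1.63 for Sec22b to Sec22a, while Kdelr3 to Kdelr2 turned to 0.37.

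With a pseudocount of 0.1, the same 10 ratios passed, at -2.31, 4.77, 2.91, -1.87, 0.63, -1.59, 5.22, -1.19, 5.83 and 2.03 in that order, and Kdelr3 to Kdelr1 and Kdelr3 to Kdelr2 turned to 0.48 and 1.66. With immunoglobulin genes removed, 2 tethers were called, Sec24b was at -0.26, and the log2 ratios of summed levels were 2.10 for cargo receptors, 1.10 for SNAREs and 1.34 for all members. With mitochondrial genes removed as well, 5 COPII genes and 2 tethers were called, and Sec24b, Sec24c and Copg1 were at -0.47, -0.035 and -0.099. Quantile normalization put Sec22a at -0.13. With no minimum, 5 COPII genes and 2 tethers were called. The more frequent title prefix put Copg1 at -0.016. Without the length trend, 2 COPI genes were called and Gbf1 was at 0.052.

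Libraries with the same replicate number had correlations of deviations from their group means of 0.11, -0.040 and -0.083. In addition, each of the 3 MBC libraries shares with a PC library a title code whose meaning is not given (0.11, -0.0044 and 0.22). Correlations over 3 pairs cannot settle whether the libraries were paired. The main fit and the exact permutation tests of the ratios use no pairing. With a replicate block by number, 16 members were called higher (3.37% of all genes), with 2 COPII genes and 1 tether, and Sec24b was at -0.092. With a replicate block by title code, 18 were called (3.75% of all genes), with 4 COPII genes, 2 COPI genes, 1 SNARE and 2 tethers.

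Leaving out 1 library at a time gave 18 to 31 members called higher, 4 to 10 COPII genes, 2 to 5 COPI genes and 1 to 4 tethers. The share of all genes called higher ran from 4.03% without PC replicate 2 to 15.1% without MBC replicate 3. COPII counts were 5 or fewer without MBC replicate 1 or any 1 of the PC libraries, and tethers dropped to 1 without PC replicate 2, 3 or 4. Log2 fold changes ran from -0.21 to 0.12 for Sec24b, -0.60 to 0.57 for Gbf1, -0.28 to 1.37 for Stx18 and -0.052 to 0.70 for Copg1. Ratio differences ran from -0.072 to 1.82 for Sec23b to Sec23a, -0.92 to 0.53 for Tmed5 to Tmed7 and -0.82 to 0.050 for Kdelr3 to Kdelr2. With an MBC library out, the smallest exact permutation p is 0.0667. With a PC library out, the groups are of equal size. Each of the 20 assignments then ties with its mirror image, so the smallest two-sided p lies above 0.05. No ratio could therefore pass. The lowest adjusted p (exact permutation) was 0.113 to 0.126 without an MBC library and 0.17 without a PC library.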
